A study of Mus musculus with 68 samples.

Results

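The genes described here are 10 genes of calcium handling in the endoplasmic reticulum (ER), with Rcan1 as a reporter of calcium signaling outside it. They were chosen by name: Calr, Canx, Nucb2, Atp2a2, Itpr1, Itpr2, Itpr3, Stim1, Stim2 and Rcan1. All 10 were among the 13197 genes listed for the founder strains and the 12803 listed for the F1 crosses. They were measured in mouse embryonic fibroblasts (MEFs), the fibroblast-rich cells that grow out of minced embryos, of 13 genotypes. The 8 founder strains were A/J (A), C57BL/6J (B6), 129S1Sv/ImJ (129), NOD/ShiLtJ (NOD), NZO/H1LtJ (NZO), CAST/EiJ (CAST), PWK/PhJ (PWK) and WSB/EiJ (WSB). The 5 F1 crosses each had a B6 mother and a CAST, 129, NOD, NZO or WSB father (xCAST, x129, xNOD, xNZO and xWSB). Cells received 2 ug/ml of tunicamycin (TM), which blocks N-linked glycosylation and so lets misfolded protein collect in the ER, or DMSO alone (control), for 4 h. The comparison of TM with control asks how ER stress changed each gene, and the comparison of genotypes asks whether the genetic background changed its level or its response. The MEFs of a genotype were a mix from several female embryos of 1 litter, so a difference between genotypes cannot be told apart from a difference between litters or cell stocks. Replicates were wells treated in parallel, and p-values measure only the spread between them.

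The ER is the main calcium store of a fibroblast. Calcium is pumped in by the SERCA pump (Atp2a2), is held in the lumen by binding proteins such as calreticulin (Calr), and leaves through the inositol trisphosphate receptors (Itpr1, Itpr2 and Itpr3). The sensors Stim1 and Stim2 lie in the ER membrane, detect an emptied store and open Orai channels at the cell surface. Calcium that reaches the cytosol activates calcineurin and through it the NFAT transcription factors, and Rcan1, whose product binds and inhibits calcineurin, is a well-known NFAT target. Calreticulin and calnexin (Canx) are also the lectin chaperones that hold glycoproteins during folding, the step upstream of which TM acts.

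There were 40 founder and 28 F1 libraries, 2 or 3 for each genotype and treatment. The authors had left out libraries that did not group with their own treatment. Separation of TM from control, and the p-values, describe only the libraries kept by that choice. Each value is a number of reads on a gene scaled to the library, without division by gene length, called a scaled read count below. Whole reads could be recovered for 66 libraries, with 7091923 to 21530282 reads on genes in the founders and 6442976 to 29528457 in the F1. For the 10 genes this gave between 85 reads (the lowest library of Itpr1) and 46553 reads (the highest of Calr). The founder and F1 sets were scaled separately, so levels are compared only within a set. TM acted in every genotype: Hspa5, the ER chaperone BiP, was 5.75- to 8.32-fold higher with TM over the founder strains and 6.66- to 8.80-fold over the crosses, and Ddit3 (CHOP) was 9.05- to 20.1-fold higher. Over the same genotypes Herpud1 was 15.0- to 25.9-fold higher and Hsp90b1, the ER paralog of Hsp90, 2.80- to 4.64-fold higher. The 10 fibroblast markers summed to between 19939 and 54704 scaled reads in founder controls and 16941 and 48548 with TM, although in the F1 set Lum had a median below 1. In the F1 set the same sum ran from 20329 to 34004 in controls and from 13112 to 29957 with TM. In both sets and both treatments the listed myeloid markers (8 of 9 in the founders and 4 in the F1) summed to at most 64.6, the 5 endothelial markers to at most 19.9 and the epithelial markers (3 of 5 in the founders and 2 in the F1) to at most 78.3. The muscle markers (4 of 7) summed to at most 358.

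Markers of other cell types stood out in 3 control libraries, and where this RNA came from was not tested. In xNZO control replicate 3, 10 markers of neurons and glia summed to 1320 scaled reads, against a median of 17.2 and a highest sum of 36.8 in the other F1 libraries. Snap25, of the synapse, was 205 there and at most 1.97 in the other F1 libraries. In that library 695 genes were more than 2-fold above every other xNZO library. Fat cell markers summed to 1513 in WSB control replicate 2 and to 881 in xNOD control replicate 3, against at most 51.4 and 26.8 in the other libraries of each set. These marker lists were chosen after the values were seen. The calls of the 10 genes within WSB, xNOD and xNZO are given with and without these libraries below.

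The 250 bases before the RefSeq start sites (assembly GRCm38.p6) are shown for Calr, Canx and the downstream start of Rcan1, the windows that held a searched motif. Nucb2, which also rose with TM, had a window without a match and is not shown. The ER stress response element (ERSE) is the best known promoter motif of the response to ER stress. The table held windows for 8 of the 10 genes, with 2 start sites for Rcan1, and none for Atp2a2 and Itpr1. Capitals mark the outer blocks of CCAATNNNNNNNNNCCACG, the ERSE, for Calr (chr8:84846932-84847181, minus strand) and Canx (chr11:50325674-50325923, minus strand). For the downstream start of Rcan1 (chr16:92400079-92400328, minus strand) they mark GGAAAA, an NFAT core, and TGACGTCA, a cAMP response element.
Calr: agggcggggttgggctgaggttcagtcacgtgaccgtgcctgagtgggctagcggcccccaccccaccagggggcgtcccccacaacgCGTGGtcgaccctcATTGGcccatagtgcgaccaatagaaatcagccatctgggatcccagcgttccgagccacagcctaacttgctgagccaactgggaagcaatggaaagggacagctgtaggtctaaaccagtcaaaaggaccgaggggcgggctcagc
Canx: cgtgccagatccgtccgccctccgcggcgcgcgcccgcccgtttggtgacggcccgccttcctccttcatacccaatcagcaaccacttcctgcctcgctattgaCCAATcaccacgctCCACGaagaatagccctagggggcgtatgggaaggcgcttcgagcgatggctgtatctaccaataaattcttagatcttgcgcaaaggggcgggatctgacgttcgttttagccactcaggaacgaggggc
Rcan1 (downstream start): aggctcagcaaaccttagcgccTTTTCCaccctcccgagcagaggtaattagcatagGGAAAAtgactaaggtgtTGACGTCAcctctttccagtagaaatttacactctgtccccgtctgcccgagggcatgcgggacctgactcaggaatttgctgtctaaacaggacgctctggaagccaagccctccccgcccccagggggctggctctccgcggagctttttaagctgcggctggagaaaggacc

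The ERSE matched from 162 to 144 bases before the Calr start, on the strand opposite to the gene, and from 145 to 127 bases before the Canx start, on the strand of the gene. Searched on both strands, it was present in 0.113% of the 32851 promoter windows of this length. No other of the windows for these genes held it. In the downstream Rcan1 window, GGAAAA was found 228 to 223 bases (opposite strand) and 193 to 188 bases before the start, and the motif is common, in 20.4% of windows. TGACGTCA lay 175 to 168 bases before that start and was present in 1.55% of windows. The upstream Rcan1 window (chr16:92466170-92466419) held none of the searched motifs, and neither did those of Nucb2, Itpr2, Itpr3, Stim1 and Stim2. The further motifs searched were ATTGGNCCACG (ERSE-II, 0.0304% of windows), TGACGTG (1.65%) and TTGCATCA (0.791%), on both strands and in none of these windows. A match is only a description of the letters.

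TM raised Calr, Canx, Nucb2, Atp2a2 and Rcan1 and lowered Itpr3, on average over the founder strains and again over the F1 crosses. Stim2 also fell, by less than 1.5-fold, and Itpr1, Itpr2 and Stim1 did not pass the thresholds in the mean. A gene was called when the Benjamini-Hochberg adjusted p of limma, taken over all genes, was below 0.01 and the change at least 1.5-fold, on log2(scaled reads + 0.1). In the mean over strains, 5 of the 10 genes were called higher and 1 lower, against 6.04% and 5.41% of all 13197 genes. In the mean over crosses the counts were again 5 and 1, against 4.95% and 5.54% of 12803 genes. Within single strains, 15 of 80 pairs of gene and strain were called higher and 4 lower (2.4% and 1.55% of all such pairs), and within crosses 15 of 50 were called higher and 1 lower (2.54% and 1.47%). The calls were uneven over genotypes. In 129, A, NZO and xWSB 0 of the 10 genes were called, where 0.315%, 0.346%, 0.32% and 0.185% of all genes were called higher and 0.00787%, 0.00786%, 0.0078% and 0.0161% lower. In B6 5 were called higher (5.04% of all genes) and 1 lower (3.22%), and in PWK likewise 5 (6.36%) and 1 (4.3%). In WSB 3 were called higher (2.85%) and 2 lower (4.2%). CAST had 1 called higher (2.54%) and 0 lower (0.478%), and NOD 1 (1.45%) and 0 (0.165%). Among the crosses, x129 had 5 called higher (4.88%) and 0 lower (1.36%), xCAST 4 (2.52%) and 0 (1.2%), xNOD 3 (3.69%) and 1 (4.6%), and xNZO 3 (1.44%) and 0 (0.152%). The 4 genotypes with no call among the 10 also had the lowest shares over all genes in both directions, but among the others the number of calls did not follow these shares, as in CAST and xCAST. When all libraries of a set were fitted together, which shares the spread over genotypes, 29 founder pairs and 21 cross pairs were called higher. Called lower in that fit were Itpr1 and Itpr3 in WSB, Stim2 in NOD, and Itpr3 and Stim1 in xNOD, but not Itpr3 in B6 or PWK. The share of all such pairs called in that fit is not given here, so its counts have no background beside them.

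The calls within WSB, xNOD and xNZO changed when the libraries with RNA of other cell types were left out, while the sizes of the called changes moved little. Leaving out a library without such markers also cost calls. Without WSB TM replicate 2 the founder pairs called lower fell from 4 to 2. Without xNOD control replicate 1 the only cross pair called lower was lost. Whether the RNA of other cell types was the reason was not tested. Without WSB control replicate 2, which leaves 1 control, 2 of the 5 WSB calls remained, those of Nucb2 (log2 change 1.4 with and 1.28 without it) and Rcan1 (1.48 and 1.38). The calls of Calr (1.07 and 1.00, adjusted p = 0.0148 without it, limma), Itpr1 (-1.11 and -1.02, adjusted p = 0.0348) and Itpr3 (-1.21 and -1.20, adjusted p = 0.0261) were lost. Without xNOD control replicate 3, 0 of the 4 xNOD calls remained. Calr changed by 0.95 with and 0.90 without it (adjusted p = 0.0343, limma), Nucb2 by 1.20 and 1.16 (adjusted p = 0.0208), Rcan1 by 1.01 and 0.99 (adjusted p = 0.0261) and Itpr3 by -1.37 and -1.28 (adjusted p = 0.0328). When all libraries of a set were fitted together, 4 of 5 xNOD calls and 3 of 6 WSB calls were left without these libraries. Without xNZO control replicate 3 the 3 xNZO calls became 5, with Canx (0.58 and 0.59) and Atp2a2 (0.74 and 0.83) added.

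**Figure D1:**
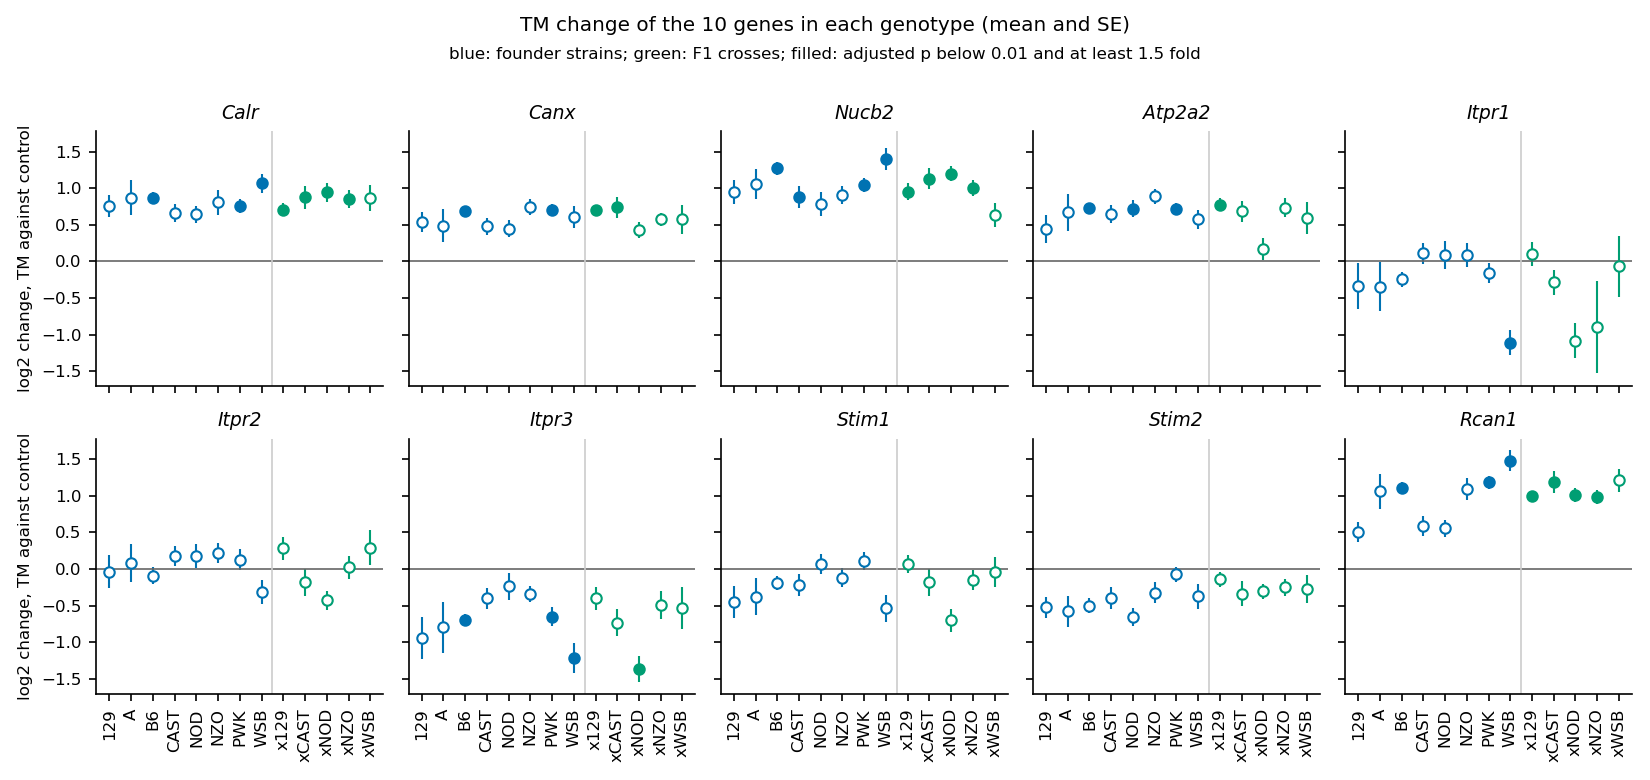
Log2 change with TM against control (y axis) of each gene in the 8 founder strains (blue) and 5 F1 crosses (green) on the x axis, with the standard error; filled points passed an adjusted p of 0.01 and 1.5-fold. Calr, Canx, Nucb2, Atp2a2 and Rcan1 lie above 0 in all 13 genotypes, Itpr3 and Stim2 below 0 in all 13, and Itpr1, Itpr2 and Stim1 on both sides.

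Calr was the most abundant of the 10 genes. Per kilobase of exon its control level averaged 444 over the founder strains, which ranked 83 of 13023 genes, and with TM 779, which ranked 31. In WSB, control libraries held 1195 and 1310 scaled reads of Calr and TM libraries 2621, 2445 and 2828. In NOD they were 1331 and 1131 against 1877, 1965 and 1916. WSB had the largest change of the founders (log2 1.07, SE 0.13) and NOD the smallest (0.65, SE 0.12), and in both every TM library was above every control. In B6 Calr went from 1131 and 1068 to 1987 and 2041.

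Every Calr value with TM exceeded every control of its genotype in all 13 genotypes, where 22.5% of all gene and strain pairs and 19.4% of gene and cross pairs were apart in this direction. These shares come from the same libraries, which the authors had kept for grouping with their treatment. The mean log2 change was 0.81 (SE 0.05; 1.75-fold, adjusted p = 5.93e-14, limma) in the founders and 0.85 (SE 0.05; adjusted p = 8.04e-12, limma) in the crosses. The change was called in B6, PWK and WSB and in 4 of the 5 crosses, x129, xCAST, xNOD and xNZO.

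Canx changed less, and its mean lay at the edge of the 1.5-fold limit. Scaled reads rose from 401 to 456 in PWK controls to 695 to 705 with TM, and from 385 to 408 in x129 controls to 640.0 to 648 with TM. In A the groups overlapped, since 1 control held 689 and 1 TM library 686. The mean log2 change was 0.59 (SE 0.05; 1.50-fold, adjusted p = 4.44e-12, limma) in the founders and 0.60 (SE 0.05; adjusted p = 1.27e-09, limma) in the crosses. Leaving out any of 15 founder libraries in turn took the founder mean under 1.5-fold, to 0.56 at the lowest (without WSB control replicate 2), and in the crosses leaving out xCAST control replicate 2, xNOD TM replicate 2 or xWSB control replicate 1 did so, to 0.58 in each. With a correction for GC content and transcript length, described below, it was 0.34 and 0.41.

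Nucb2, which encodes nucleobindin 2, a calcium-binding protein of the secretory pathway, had the largest mean change of the founders. Scaled reads in B6 were 31.6 and 29.6 in control and 72.4 and 75.8 with TM. In WSB they were 31.3 and 36.9 against 95.9, 88.9 and 85.5, and in 129, the strain with the highest control level, 54.5 and 53.6 against 122, 102 and 92.4. No library of control reached a TM library in any of the 13 genotypes. The mean log2 change was 1.04 (SE 0.05; 2.05-fold, adjusted p = 2.27e-16, limma) in the founders and 0.99 (SE 0.05; adjusted p = 1.48e-13, limma) in the crosses. It was called in B6, CAST, PWK and WSB and in every cross but xWSB, where the change was 0.64 (SE 0.17).

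Atp2a2, the pump that fills the store, rose in the mean of both sets, from a control level that hardly differed between strains. The group means of control were 501 scaled reads in 129 and 538 in CAST at the extremes, a ratio of 1.07. In NZO the 2 controls held 502 and 516 and the 3 TM libraries 958, 952 and 922. In xNOD, by contrast, controls of 397 to 410.0 overlapped with TM libraries of 382 and 541. The mean log2 change was 0.68 (SE 0.06; 1.60-fold, adjusted p = 2.18e-11, limma) in the founders and 0.59 (SE 0.07; adjusted p = 2.91e-07, limma) in the crosses. The call was made in B6, NOD, PWK and x129. The founder mean stayed called in every setting tried, whereas the cross mean fell under 1.5-fold when any of 8 libraries was left out, at the lowest to 0.54 without xNOD TM replicate 2.

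**Figure D2:**
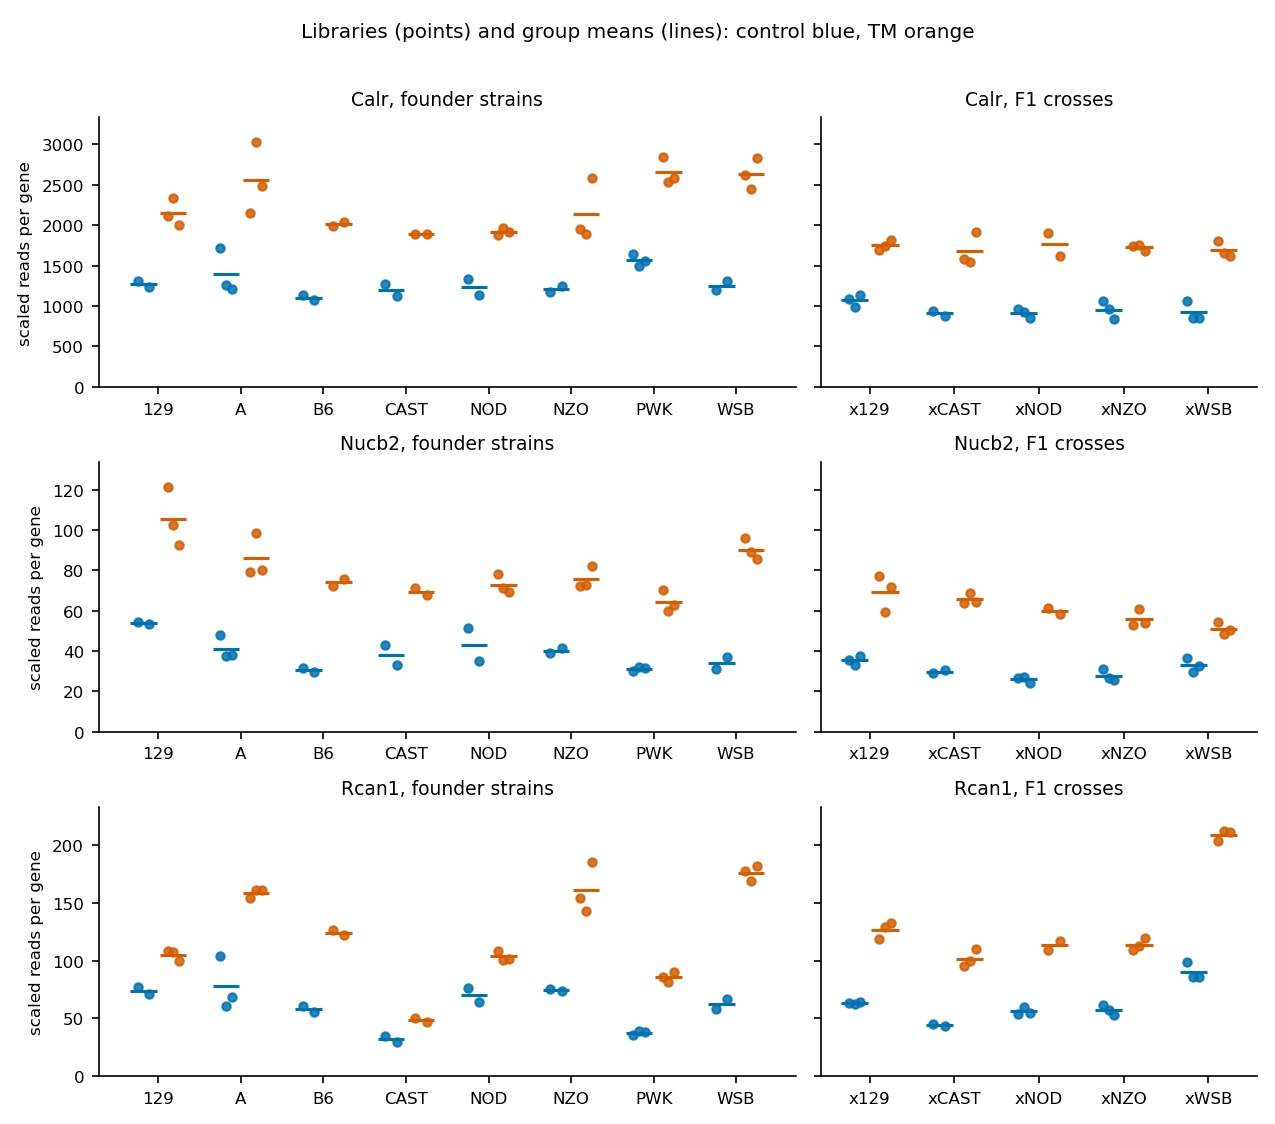
Scaled reads per gene (y axis, from 0) of Calr, Nucb2 and Rcan1 by genotype (x axis), with 1 point per library and a line at the group mean (control blue, TM orange). In all 13 genotypes the TM points lie above the control points for each gene, and for Rcan1 CAST is lowest of the founders in both treatments and xWSB highest of the crosses.

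Of the 3 receptors that release calcium from the store, only Itpr3 was called in the mean, and it fell. Per kilobase of exon Itpr3 was also the most abundant, with 26.5 in founder controls against 2.38 for Itpr1 and 1.81 for Itpr2. In PWK, Itpr3 went from 409, 377 and 372 scaled reads in control to 199, 241 and 308 with TM. In B6 it went from 233 and 239 to 152 and 141, and in WSB from 217 and 212 to 68.9, 96.5 and 119. TM lay below every control in 7 of 8 founder strains (23.7% of all gene and strain pairs were apart in this direction) and overlapped in NOD, and TM was below every control in xCAST and xNOD of the crosses (20.3% of pairs). The mean log2 change was -0.66 (SE 0.10; 0.633 of control, adjusted p = 1.81e-06, limma) in the founders and -0.70 (SE 0.11; adjusted p = 2.14e-05, limma) in the crosses. The fall was called in B6, PWK, WSB and xNOD. Without WSB control replicate 2, the library with fat cell RNA, or without WSB TM replicate 2, the 4 founder calls of the 10 genes became 2, and without xNOD control replicate 1, 2 or 3 the only cross call became 0, while without xNOD TM replicate 2 or xCAST TM replicate 3 it became 3 or 2.

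Itpr1 and Itpr2 had no common direction. Itpr1 was called lower in WSB, where 33.4 and 29.3 scaled reads became 15.3, 14.7 and 13.4 (log2 change -1.11, SE 0.17), and it differed by 0.11 or less in CAST, NOD and NZO. Its mean log2 change was -0.24 (SE 0.10; adjusted p = 0.0356, limma) in the founders and -0.45 (SE 0.22; adjusted p = 0.0993, limma) in the crosses. In xNZO the 3 controls held 14.7, 15.6 and 91.5 scaled reads of Itpr1, and the highest was the library with neuronal RNA. With that library the xNZO change was -0.90 (SE 0.63) and without it -0.04, and the mean over crosses became -0.27. No xNZO TM library exceeded 17.1. Itpr2 changed by between -0.32 (WSB) and 0.22 (NZO) in the founders, was called in 0 of 13 genotypes by limma or edgeR (0 strains and 1 cross had an unadjusted p below 0.05 with either), and averaged 0.04 (SE 0.07) in the founders and -0.0027 (SE 0.09) in the crosses.

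The receptor genes are long, and their change moved with that of long genes in general. Transcripts of Itpr1, Itpr2 and Itpr3 reach 9870, 11679 and 8990 bases, at or above the 96.0th percentile of listed genes by length. The longest 10% of genes (from 6999 bases) changed by a median of -0.55 with TM in WSB and, in the F1, by -0.59 in xNOD, but by 0.13 in CAST, 0.11 in NOD and 0.09 in NZO. WSB and xNOD were also the genotypes with the lowest changes of Itpr1 and Itpr3, and CAST, NOD and NZO the founders with the changes of Itpr3 nearest to 0. The same held for single libraries. In A TM replicate 2 the longest 10% of genes stood at -0.75 against the strain's controls and Itpr3 at -1.62, whereas in A TM replicate 3 they stood at 0.04 and -0.22. In 129 TM replicates 1 and 3 the longest genes stood at -0.67 and 0.25, and Itpr1 at -0.87 and 0.21.

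**Figure D3:**
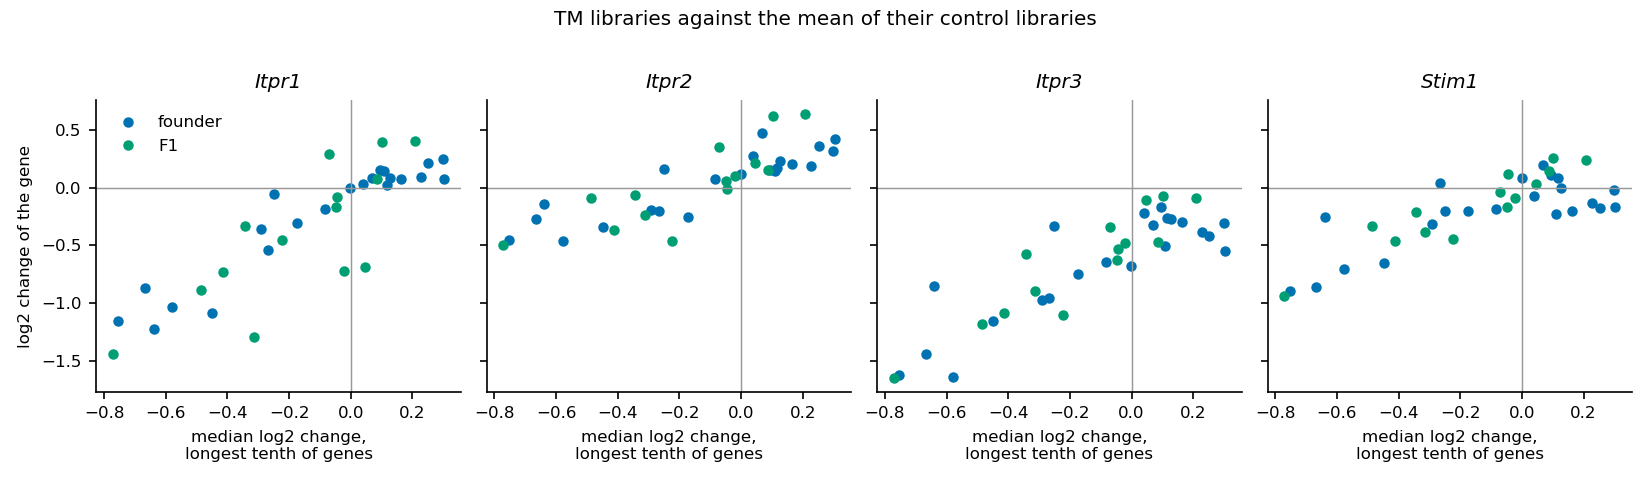
For each of the 22 founder (blue) and 14 F1 (green) TM libraries, the median log2 change of the longest 10% of genes (x axis) and the log2 change of Itpr1, Itpr2, Itpr3 or Stim1 (y axis), both against the mean of the control libraries of the same genotype. Libraries in which long genes stood low had low values of these genes, and Itpr3 was below 0 in all TM libraries.

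The change with TM also moved with base composition. Over the 9940 founder genes with a mean of at least 5 scaled reads, the 10% with the highest GC content (from 57.9%) changed by a median of -0.28 and the 10% with the lowest (up to 41.5%) by 0.33, with both signs the same in every genotype. Itpr3 has 57.5% GC in its longest transcript, Stim1 54.5% and Rcan1 54.5%, whereas Nucb2 has 41.8% and Canx 42.2%. When a spline on GC content and on length was subtracted from each library, the mean change of Itpr3 became -0.22 in both sets, with adjusted p of 1.39e-05 in the founders and 0.00148 in the crosses, and no longer reached 1.5-fold. Nucb2 became 0.65 in the founders and 0.61 in the crosses, and Itpr1 -0.0096 and -0.15. Itpr2 moved to 0.31 and 0.33 (adjusted p of 6.51e-06 and 1.50e-05, limma). Calr (0.74 and 0.76), Atp2a2 (0.73 and 0.69) and Rcan1 (1.02 and 1.13) stayed called, and so did Nucb2. Canx (0.34 and 0.41) no longer reached 1.5-fold. The part of length and base composition in these changes was not tested beyond this correction, which also removes any biological change that goes along with them.

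**Figure D4:**
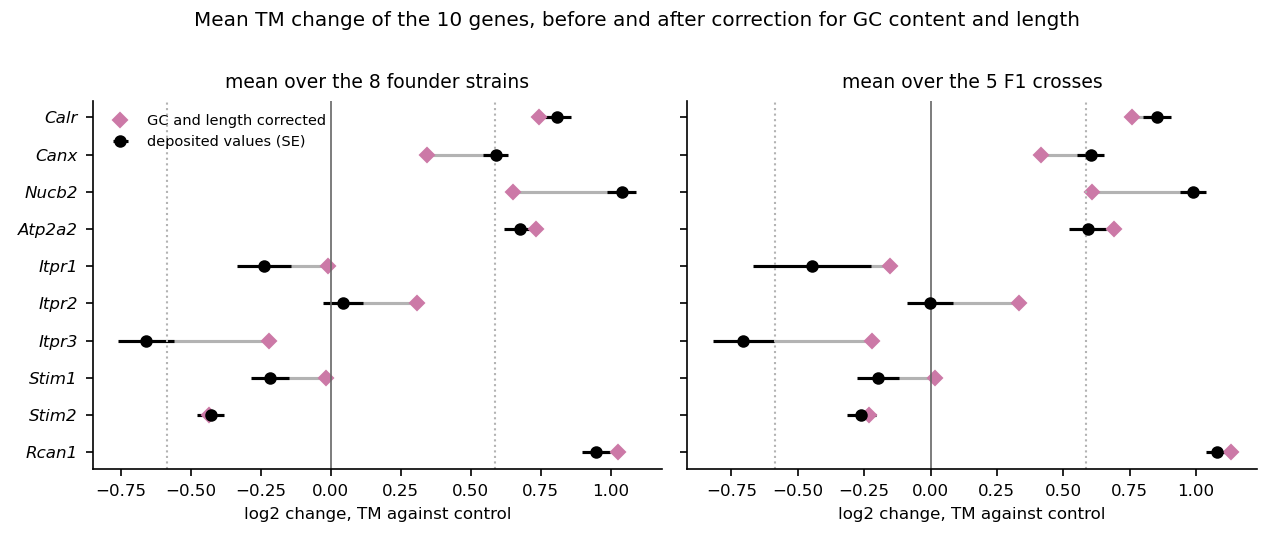
Mean log2 change with TM (x axis) of the 10 genes over the 8 founder strains (left) and the 5 F1 crosses (right), from the deposited values with the standard error (black) and after the correction for GC content and length (pink); dotted lines mark 1.5-fold. Itpr3, Nucb2 and Itpr2 moved most with the correction, and Rcan1, Atp2a2, Calr and Stim2 moved least.

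Neither sensor of store filling reached a 1.5-fold change in the mean of either set. Stim2, which responds to small losses of stored calcium, was lower in 8 of 8 strains and 5 of 5 crosses, with a mean log2 change of -0.43 (SE 0.05; 0.743 of control, adjusted p = 8.26e-09, limma) in the founders and -0.26 (SE 0.05; adjusted p = 0.000422, limma) in the crosses. In NOD its scaled reads went from 39.5 and 38.0 to 26.6, 23.5 and 23.7, and in PWK controls of 33.2 to 36.7 overlapped with TM libraries of 30.3 to 36.2. Its correction for GC content and length gave -0.43 and -0.23. Stim1 changed by -0.22 (SE 0.07; adjusted p = 0.00826, limma) and -0.20 (SE 0.08; adjusted p = 0.0420, limma), and by -0.017 and 0.018 after the correction. Within single genotypes neither sensor was called by edgeR or by limma fitted to that genotype alone, although Stim2 in NOD (-0.66) and Stim1 in xNOD (-0.70) were past 1.5-fold. When all libraries of a set were fitted together, limma called both lower, with an adjusted p of 0.00199 for Stim2 in NOD and 0.00917 for Stim1 in xNOD, the latter 0.0371 without xNOD control replicate 3. At an unadjusted p below 0.05 limma found Stim2 in 5 strains and 1 cross and Stim1 in 1 strain and 1 cross, and edgeR found Stim2 in 6 strains and 1 cross and Stim1 in 1 and 1.

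Rcan1 was higher with TM in every genotype, and over the founder strains its change spanned more than that of the other 4 genes called higher in the mean (from 0.50 to 1.48, against 0.78 to 1.4 for Nucb2). In WSB the controls held 58.6 and 67.2 scaled reads and the TM libraries 177, 169 and 181. In CAST they held 35.1 and 29.9 against 50.6 and 47.0, and in 129 77.6 and 70.7 against 108, 107 and 99.9. The log2 change was 1.48 (SE 0.14) in WSB, 0.59 (SE 0.14) in CAST and 0.50 (SE 0.14) in 129, the smallest of the founders, and NOD had 0.56 (SE 0.12).

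In PWK the controls of Rcan1 were 36.0, 38.9 and 38.0 and the TM libraries 85.6, 81.9 and 89.9. B6 went from 60.4 and 55.2 to 127 and 122, and NZO from 75.6 and 73.7 to 154, 143 and 185. In NOD, 76.7 and 64.4 became 109, 101 and 102. The controls of PWK lay below those of the other 3 strains, those of NZO and NOD overlapped, and each TM group was above its own controls. In A, 1 control library (replicate 1) held 104 against 60.7 and 68.8 in the others, below the TM libraries of 154, 161 and 161.

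The mean log2 change of Rcan1 was 0.95 (SE 0.05; 1.93-fold, adjusted p = 9.61e-16, limma) in the founders and 1.08 (SE 0.04; adjusted p = 4.45e-16, limma) in the crosses, and it was called in B6, PWK and WSB and in 4 crosses. Among the crosses the controls ranged from 43.7 and 45.4 in xCAST to 98.7, 85.5 and 86.1 in xWSB, and TM libraries from 95.3, 99.6 and 110.2 in xCAST to 203, 212 and 211 in xWSB. The change was similar in size over the crosses, from 0.99 (xNZO) to 1.21 (xWSB). An antisense gene, Gm46555 (chr16:92457477-92462490), lies within the span of Rcan1 (chr16:92391953-92470867). Whether the counting used strand is not given in the sources used here, so reads of the 2 cannot be told apart. The same holds for Itpr1 and the antisense gene Gm44040, and for Itpr3 and Itpr3os.

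The test of whether the TM change differed between the 8 strains called 0 of the 10 genes and 23 of all 13197 (0.174%), and over the 5 crosses 0 of 10 and 7 of 12803 (0.0547%), with limma. Rcan1 came closest, with an unadjusted p of 0.000184 and an adjusted p of 0.0591. It was the only founder gene of the 10 with an unadjusted p below 0.05, and 1 of the 10 was below 0.05 in the crosses, while edgeR also called 0 in each set and found 1 in each below 0.05. Over the other settings the adjusted p of Rcan1 ran from 4.27e-05 (library weights) to 1.00 (replicate block), with 0.017 after the correction for GC content and length. Without A control replicate 1, the library at 104, it was 0.00063, and without WSB control replicate 2, the library with fat cell markers, 0.207. Of the settings and libraries left out, it was below 0.01 with library weights and without A control replicate 1, and in no other. Library weights also called far more of all genes than the main fit, with the count given below.

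In control cells the levels of several of these genes differed between strains, most of all Itpr1, Rcan1 and Stim1. A moderated F test over the 8 strains called 6 of the 10 genes (Rcan1, Itpr1, Stim1, Nucb2, Itpr3 and Itpr2), beside 37.2% of all genes, and over the 5 crosses 4 (Rcan1, Stim1, Itpr3 and Nucb2), beside 24.8%. With so many genes called in all, these counts are no result about the group, and only the patterns of the single genes are described. In bulk RNA, fewer cells of a type and less RNA per cell cannot be told apart, and reads were aligned to a genome made for each strain, whose effect on levels was not tested.

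Itpr1, the receptor best known from neurons, was high in CAST and PWK, which like WSB are wild-derived strains. Its control libraries held 78.4 and 103 scaled reads in CAST and 80.9, 88.3 and 90.4 in PWK. They held 35.1 and 33.6 in B6, 28.8, 34.6 and 36.1 in A, 33.4 and 29.3 in WSB, 31.7 and 25.8 in NZO, and 21.5 and 34.5 in NOD. In 129 they held 14.7 and 18.0, below every other strain. From 129 at 16.4 to CAST at 90.7 the group means spanned 5.54-fold (adjusted p = 5.52e-08, limma). The means of NOD, NZO, WSB, A and B6 lay next to each other with overlapping libraries, as did PWK and CAST, whereas 129 was apart from NOD and B6 from PWK.

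In the crosses Itpr1 was again high in the offspring of CAST. The xCAST controls held 60.7 and 77.0 scaled reads, those of x129 17.1, 19.3 and 13.5, those of xNOD 20.3, 23.4 and 27.8 and those of xWSB 12.5, 24.4 and 31.0. With the xNZO library that held neuronal RNA the difference between crosses had an adjusted p of 0.0368 (limma), and without it 0.000278. With TM, xCAST libraries (50.1 to 64.8) were above every TM library of the other crosses, of which the highest held 27.8. In the founders the 11 listed markers of neurons and glia summed to 30.5 to 38.6 in CAST and 25.3 to 35.5 in PWK, within the range of the other strains (15.0 to 86.8).

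**Figure D5:**
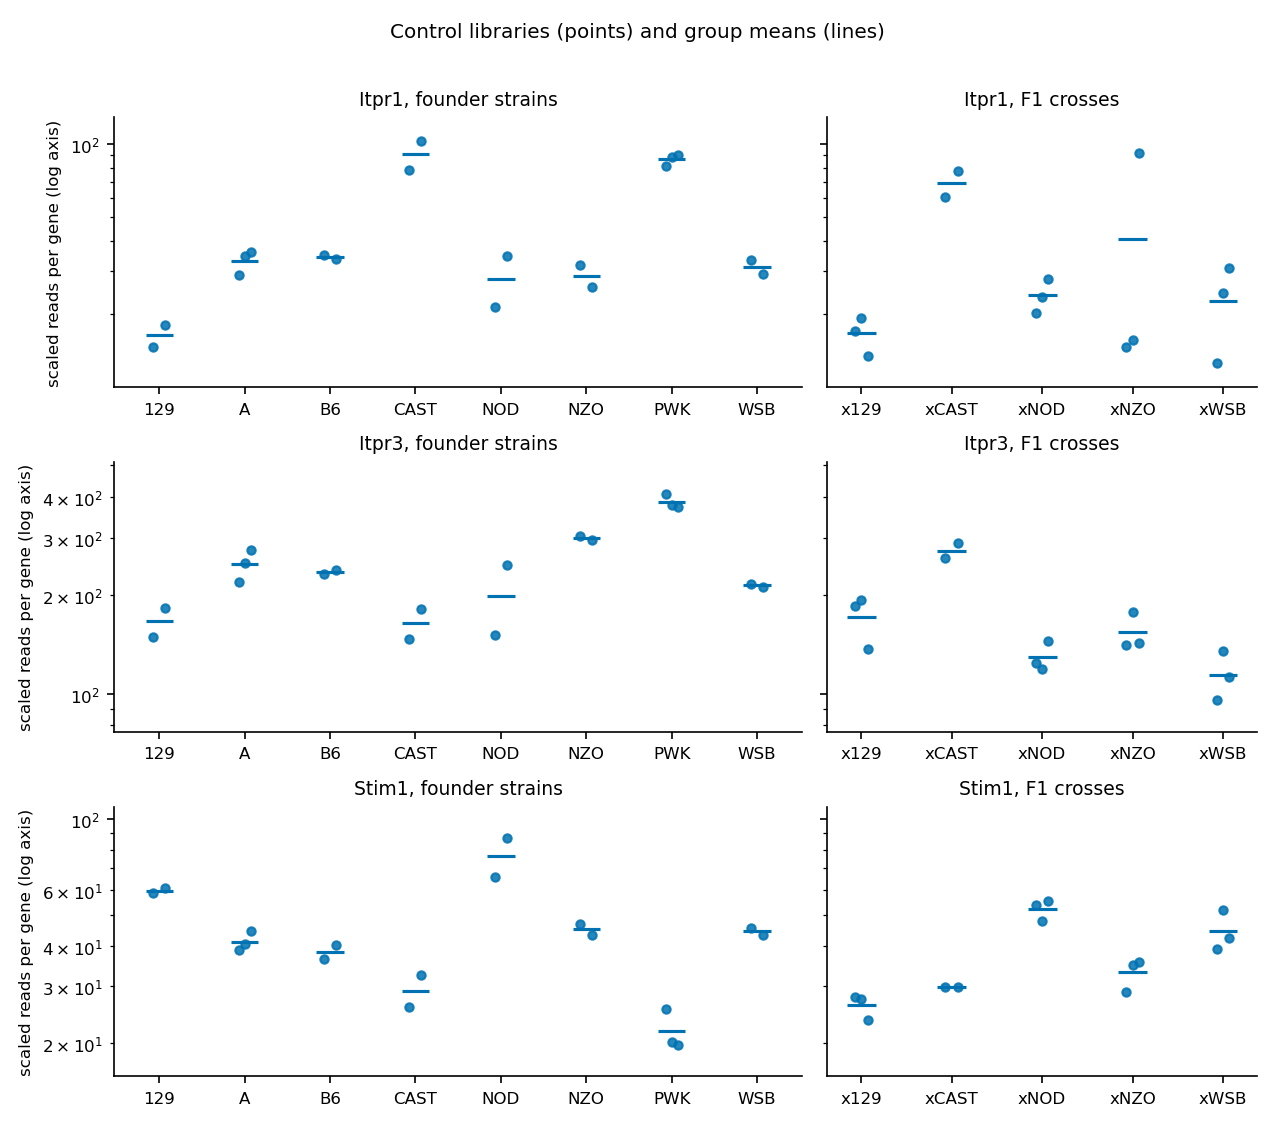
Scaled reads per gene in control libraries (y axis, log scale) of Itpr1, Itpr3 and Stim1 by genotype (x axis), with 1 point per library and a line at the group mean; founder and F1 panels were scaled separately. Itpr1 is highest in CAST and PWK of the founders, with 1 xNZO library at 91.5 far from the others, and Stim1 is lowest in PWK and highest in NOD.

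Stim1 had another order. Its control libraries held 25.5, 20.2 and 19.7 scaled reads in PWK, 25.8 and 32.5 in CAST, 36.6 and 40.5 in B6, 58.8 and 60.7 in 129, and 65.9 and 87.2 in NOD, a span of 3.51-fold between the means of PWK and NOD (adjusted p = 1.26e-07, limma). B6, A, WSB and NZO overlapped with their neighbours in this order, and PWK, CAST, 129 and NOD stood apart from theirs. NOD was also highest with TM (75.7 to 81.8). Among the crosses xNOD was highest in control (47.9 to 55.4), overlapping with xWSB, and x129 was lowest at 26.2 on average (adjusted p = 0.000245, limma), although the 129 parent was among the higher founders.

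Rcan1 was lowest in CAST (29.9 and 35.1) and next in PWK (36.0 to 38.9), and these 2 strains were apart from each other and from the other 6. From B6 at 57.8 to A at 77.8 each strain overlapped with its neighbour (adjusted p over the 8 strains = 1.14e-08, limma). With TM the order was CAST, PWK, NOD, 129, B6, A, NZO and WSB, and the span of the means grew from 2.40-fold in control to 3.6-fold. In the crosses xCAST was lowest and xWSB highest in control, each apart from its neighbour, spanning 2.02-fold (adjusted p = 9.07e-08, limma). The WSB parent itself was in the middle of the founder order.

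Itpr3 was highest in PWK (372 to 409 scaled reads) and next in NZO (295 and 304), each apart from its lower neighbour, and its lowest mean was 164 in CAST (adjusted p = 0.00407, limma). Yet xCAST, with 259 and 288, was the highest of the crosses (adjusted p = 0.00638, limma). The adjusted p rose above 0.01 when any of 5 founder libraries was left out (at most 0.0192, without PWK control replicate 1) and when any of 7 F1 libraries was left out (at most 0.0667, without xCAST control replicate 3). Nucb2 was highest in 129 (54.0 on average) and overlapped between neighbours in the other strains (adjusted p = 0.000818, limma). In the crosses its adjusted p was 0.00882 and ranged from 0.00456 to 0.0358 over libraries left out, with 0.0146 without xNZO control replicate 3 and the highest without x129 control replicate 3. Itpr2 was highest in WSB (40.8 on average; adjusted p = 0.00558, limma), up to 0.0414 without WSB control replicate 2. Calr, Canx, Atp2a2 and Stim2 were not called in either set, with adjusted p of 0.0840, 0.0448, 0.999 and 0.0592 in the founders. With library weights Calr (2.32e-06), Canx (0.000104) and Stim2 (0.000797) were called in the founders and Calr (0.0013) in the crosses. That setting also called far more of all genes in both sets than the main fit, with the counts given below. These calls are therefore no result about the single genes. Founder Calr was also called with the correction for GC content and length, and founder Stim2 without A control replicate 1 (0.00718).

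Each cross was compared with the mean of its parents in its log2 change with TM, which asks whether the hybrid response departs from the midpoint of the parents. Of the 50 pairs of gene and cross, 0 were called by limma or edgeR, beside 7 called by limma among all 63110 pairs (0.0111%). At the looser limit of an unadjusted p below 0.05, 7 of the 50 were found with each. The share of all pairs below that limit is not given here, so this count is no result about the genes. The lowest adjusted p was that of Nucb2 in xWSB. It changed by 0.64 in the cross, 1.28 in B6 and 1.4 in WSB, a difference of -0.70 (SE 0.15; adjusted p = 0.0406, limma), and of -0.64 (adjusted p = 0.16) without WSB control replicate 2. Of the other 6 pairs with a low unadjusted p, 3 were in xNOD, where Atp2a2 changed by 0.17 against 0.73 in B6 and 0.72 in NOD (difference -0.55, SE 0.20), and Stim1 and Itpr3 differed by -0.63 and -0.90. Without xNOD control replicate 3 these differences were -0.57, -0.59 and -0.82. This was the cross with the lowest change of the longest genes. The other 3 pairs were Stim2 in x129 (difference 0.37, SE 0.15), Rcan1 in xCAST (0.34, SE 0.15) and Itpr2 in xWSB (0.50, SE 0.24).

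Another 67 genes of calcium handling were looked at. In the founders 60 were listed, of which 4 rose and 1 fell, beside 6.04% and 5.41% of all genes. Their median change was 0.01 against -0.04 over all genes. In the crosses 58 were listed, of which 3 rose and 4 fell, beside 4.95% and 5.54% (median -0.0033 against -0.04). The counts were near these shares except for the 1 gene called lower in the founders. A difference from the shares was not tested, so the counts are no result about the list. Hspa5 (2.82 in the founders and 2.90 in the crosses) and Hsp90b1 (1.80 and 1.88), which bind much of the calcium of the ER lumen, rose in both sets. They were the only called members of the 12 calcium-binding proteins of the secretory pathway (9 listed in the crosses), and the reticulocalbins and calumenin were among those not called. Hspa9, the mitochondrial chaperone that bridges the receptors to the outer membrane channel, rose in both sets (0.62 and 0.64) but changed by 0.45 and 0.47 after the correction for GC content and length, and the other 5 of the 6 genes of mitochondrial uptake were not called. Orai1, the channel that Stim1 opens, fell in both sets (-0.65 and -0.69; -0.48 and -0.59 after the correction), and the other 6 genes of store-operated entry were not called.

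The remaining calls were in 1 set each, and these genes are named after their values were seen. Erp44, which binds Itpr1 from the lumen, rose in the founders (0.68, and 0.58 in the crosses, just under the limit). After the correction for GC content and length it changed by 0.32 and 0.24. The other 11 listed partners of the release channels were not called in either set. Of these, Itpkc (0.58 in the founders and 0.53 in the crosses) passed both thresholds after the correction. It then changed by 0.79 (adjusted p = 8.63e-14, limma) and 0.72 (adjusted p = 6.73e-10, limma). Of the pumps, Atp2b4, which extrudes calcium at the cell surface, fell in the crosses (-0.59, and -0.49 in the founders; -0.32 and -0.29 after the correction). Of the 16 genes of calcineurin and NFAT, 0 were called in the founders. Over all genes 6.04% were called higher and 5.41% lower in the founders, and 4.95% and 5.54% in the crosses. A difference from these shares was not tested, so the counts are no result about the 16 genes. In the crosses Nfatc2 (-0.84) and Nfatc3 (-0.96) fell, and in the founders they changed by -0.42 and -0.50. After the correction Nfatc2 changed by -0.47 in the crosses (adjusted p = 0.0527, limma) and Nfatc3 by -0.93, so that of these single-set calls that of Nfatc3 was the only one left. The calcineurin subunits Ppp3ca, Ppp3cb, Ppp3cc and Ppp3r1 and the paralogs Rcan2 and Rcan3 were not called in either set. Rcan1, which is not among these 16 genes, was called higher in both sets, and a contrast between it and them was not tested.

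The genes most like Rcan1 in their response were sought by the correlation of log2 of TM against the median control of the strain over the 22 founder TM libraries, which share controls within a strain and share the length and GC trends. The 5 highest Pearson r were those of Rnd1 (0.88), Arf2 (0.86), Mrps27 (0.86), Phlda1 (0.86) and Rhob (0.85). Over the 14 F1 TM libraries, which did not enter the choice, r was 0.60 for Rnd1, -0.28 for Arf2, 0.63 for Mrps27, 0.70 for Phlda1 and 0.80 for Rhob. Rnd1 (mean change 1.34 in the founders and 1.24 in the crosses) and Phlda1 (0.67 and 0.78) rose with TM as well, while Rhob changed by -0.02 and 0.13. With the other genes of the list Rcan1 had its highest r with Nucb2 (0.75 in the founders but -0.52 in the F1) and Calr (0.72 and 0.58).

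The genes most like Calr were Pes1 (r of 0.93), Timm44 (0.92), P4hb (0.92), Smarcb1 (0.91) and Ccdc174 (0.90), and in the F1 libraries r was 0.89, 0.75, 0.67, 0.94 and 0.65. P4hb, the ER protein disulfide isomerase, changed by 0.37 in the founders and 0.43 in the crosses, and Ccdc174 by 1.15 and 1.05. Pes1, Timm44 and Smarcb1 changed by at most 0.16. Among the 10 genes, Calr had its lowest founder r with Itpr1 (-0.76, and -0.52 in the F1), Itpr2 (-0.61 and -0.29), Itpr3 (-0.60 and -0.29) and Stim1 (-0.53 and -0.32). In the F1 its lowest were with Atp2a2 (-0.70, and -0.39 in the founders) and Stim2 (-0.64 and -0.06).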

How the data were processed

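The authors treated MEFs thawed at an early passage, sequenced mRNA, aligned reads with TopHat 1.4.1 to strain-specific genomes (GRCm38, per the submitters' processing notes), scaled libraries with TMM in edgeR and left out those that grouped apart from their condition. The deposited signal is called FPKM by the authors, but its values are whole multiples of 1 step per library, so they are scaled reads without division by length, and the tests designed for FPKM were run on this signal. Reads were taken as recovered where values were whole within 0.02 of a read. The counter, its annotation and its use of strand are not given in the sources used here.

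TM was compared with control with limma 3.58.1 (R 4.3.3; eBayes with trend) on log2(value + 0.1) over genes of at least 0.5 in at least 2 libraries, within a genotype for the single genotypes and in 1 fit per set for means, interactions and control levels. Python 3.11.15 made the summaries. These fits were also run on simulated reads. The simulation gave every gene and library the same spread and the TM change no trend with length or GC content. The real libraries differ from it in both, so that run does not test the calls reported here. Alternatives were median-of-ratios scaling, a pseudocount of 1, a mean filter of at least 2 or none, no trend, library weights, edgeR 4.0.16 on recovered reads, a replicate block, 1 fit per set, FDR 5% and leaving out each library. The correction for GC content and length (longest GENCODE M21 transcript) was added after seeing the data. Gene lists and members were chosen with earlier results of these data known. Text names the 10 genes, the other calcium genes called in both sets, 4 markers of TM action and the 5 genes most like Rcan1 and Calr. The calcium genes called in 1 set and the uncalled ones named beside them were added after their values were seen. The lists held 67 calcium genes, 10 fibroblast, 9 myeloid, 5 endothelial, 5 epithelial and 7 muscle markers, and, added after seeing the data, neuron, glia and fat cell markers.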

Additional observations from a re-analysis of the deposited data

How the results depend on the processing

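The fewest reads were behind Itpr2 (a median of 338 a library), Itpr1 (368.5) and Stim2 (377), although the standard error of the Stim2 mean was below that of Itpr3 (a median of 2400.5 reads) in both sets. With 2 or 3 libraries a group the calls within a genotype depended on how the spread was estimated. The cause of the differences below was not tested, except that FDR 5% admits more calls by construction.

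Pairs of founder strain and gene called higher (15 in the report) were 31 with library weights, 29 in 1 fit, 26 at FDR 5% and 5 without a trend in the prior variance, and 14 to 20 over libraries left out. Those called lower (4) were 1 with the correction for GC content and length and 0 without a trend, and 2 to 6 over libraries left out. Pairs of cross and gene called higher (15) were 7 without a trend and 11 to 17 over libraries left out. Those called lower (1) were 0 with the correction or without a trend, 2 with library weights or in 1 fit, 4 at FDR 5%, and 0 to 3 over libraries left out. A lone library left in a group is assumed to vary like the others. The share of all pairs of gene and genotype called in these other settings is not given here. The counts therefore show only how the number of calls moved with the setting, and are no result about these genes.

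Over all genes, the number higher in the founder mean (797) was 758 to 846 over libraries left out, and the number lower (714) was 384 with the correction, 402 with a pseudocount of 1 and 645 to 861 over libraries left out. In the crosses the number higher (634) was 617 to 657 and the number lower (709) was 374 with the correction, 433 with a pseudocount of 1 and 613 to 809 over libraries left out. Genes with a strain difference in the change (23) were 40 with the correction, 13 with edgeR, 332 with library weights, 37 with a pseudocount of 1 and 11 to 122 over libraries left out, the highest without WSB control replicate 3. Those with a cross difference (7) were 19 with the correction, 739 with library weights and 5 to 11. Control levels called (4915 and 3176) were 9101 and 6592 with library weights, and 4327 to 5469 and 2610 to 3383 over libraries left out. Crosses against parents (7) gave 17 with the correction, 1334 with library weights, 11 with a pseudocount of 1 and 6 to 15 over libraries left out.

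The replicate numbers were not taken to pair the samples. Over 29 same-numbered pairs of control and TM library the correlation of deviations was above 0.1 in 11 and ran from -0.67 to 0.56. Where a genotype had more than 1 such pair, all were positive in 129, NZO, xNOD and xWSB, all negative in A, WSB and xCAST, and mixed in the rest. Deviations within such small groups depend on each other, so these values cannot show that pairing was absent. With the replicate block, which could not be fitted within B6 and CAST, the interaction counts were 0 and 1, the crosses against parents 4, cross pairs called lower 2, founder pairs higher 12 against 9 in the same 6 strains, and the Atp2a2 mean of the crosses 0.58. With the replicate block and the correction, founder pairs higher were 15 against 9, founder pairs lower 1 against 3, cross pairs lower 0, genes higher and lower in the founder mean 513 and 260, genes lower in the cross mean 350, and the founder interaction 0. For the founder and cross pairs called higher or lower with the block, the share of all such pairs is likewise not given here.

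The Itpr2 mean of the crosses, near 0, changed sign with the correction (0.33), edgeR (0.0045), library weights (0.017) and the replicate block with the correction (0.34), and ran from -0.038 to 0.035 over libraries left out. The Stim1 mean of the crosses became 0.018 with the correction. No other mean change of the 10 genes changed sign in the settings tried.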
